A study of Mus musculus with 3 samples.

Results

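The cytosolic ribosomal protein genes were examined in the bone marrow (BM) transcriptome of mice given LECT2 (leukocyte cell-derived chemotaxin-2), a secreted cytokine. Members were the gene symbols made of Rpl, Rps or Rplp and a number, with or without a letter, together with Rpsa, Rpl36al and Fau. Pseudogene symbols with the ending -ps were left out. This gave 86 of the 17250 gene symbols in the tables, 52 of the large ribosomal subunit and 34 of the small subunit, and 8 of them are relatives (paralogs) of another member.

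BM cells were flushed from the femur, tibia, pelvis and humerus of C57BL/6 mice aged 6 to 8 weeks that had received recombinant LECT2 from CHO cells under the skin at 300 μg/kg each day for 3 or 5 days. The 0 days library carries no injection in the labels, and no group injected with a vehicle is among the libraries. There was 1 poly(A)-selected library per time point, and the number of mice in each is not given in the sources used here. In order of time, 15523952, 15146983 and 15514673 reads were counted on genes. Without replicates no test was made, and all values describe these libraries.

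Ribosomal proteins assemble with ribosomal RNA into the small subunit, which reads the mRNA, and the large subunit, which joins amino acids. Their mRNAs are among the most abundant of most cells, and cells usually make them in similar amounts. Many of these mRNAs start with a stretch of C and U, the 5′ terminal oligopyrimidine (TOP) tract, through which the mTOR pathway controls their translation. In BM, defects of single ribosomal proteins are known to impair the making of red blood cells.

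The ribosomal protein genes were lower after LECT2 at both time points. Together they held 6.67% of the reads on genes at 0 days (95% exact binomial interval 6.65 to 6.68), 3.97% at 3 days (3.96 to 3.98) and 4.34% at 5 days (4.33 to 4.35). Such intervals hold counting error alone, since amplified reads that carry no molecular identifier are not separate molecules. The library at 0 days was the highest, and the library at 5 days lay slightly above that at 3 days. In bulk RNA, fewer cells of a type and less RNA per cell cannot be told apart.

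Changes of single genes were taken as the log2 ratio of RPKM (reads scaled to the length of the gene and the depth of the library) after adding 0.1, for the 83 members whose mean reached 1 RPKM. The median level of these members was 969.8, 572 and 680.2 RPKM at 0, 3 and 5 days. Against 0 days, the 3-day ratio had a median of −0.76, a level of 0.589 times, and the 5-day ratio one of −0.68, a level of 0.625 times. At 3 days all 83 were lower, against 42.9% of all genes and 75% of other genes of the same length range (427 to 1878 bases). At 5 days 81 of 83 were lower, against 32.7% and 58.1%.

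The size of the change was mostly under 2-fold. At 3 days 13 of 83 members were at least 2-fold lower, against 2.41% of all genes and 4.93% of other genes of the same length range, and 0 were 2-fold higher, against 4.08% of all genes. At 5 days 13 members were again at least 2-fold lower, against 5.91% and 10.6%, and 0 were 2-fold higher, against 15.5% of all genes. The genes of that range were longer than the members, with a median of 1308.5 bases against 708. At 5 days 58 of 166 other genes up to 500 bases and 60 of 238 above 500 and up to 700 bases were 2-fold lower. So were 69 of 370 in the range with at least 100 RPKM, and the members' 13 of 83 was no higher a share than these. Of the 166, however, 39 had 3 or fewer reads in a library at 0 or 5 days. Within the same classes, 6 of 16 members up to 500 bases and 4 of 23 above 500 and up to 700 bases were 2-fold lower. By 1.5-fold or more, 65 members were lower at 3 days and 49 at 5 days. Of other genes of the same length range 21.9% and 22.8% were, and of all genes 1023 of 11095 and 1301 of 11133. Among other genes up to 500 bases it was 75 of 166 and 94 of 166. Above 500 and up to 700 bases it was 100 of 238 and 113 of 238. At 5 days the members' 49 of 83 was thus near the share of other genes up to 500 bases. The counts at 2-fold depended on the scaling of the libraries. With edgeR's TMM scaling, which sets the bulk of genes near no change, the 2-fold count was 20 members at 3 days, against 3.16% of all genes and 6.46% of other genes of the same length range, and 40 at 5 days, against 9.96% and 18.3%. The medians of the members were then −0.85 and −0.99.

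From 3 to 5 days the direction hung on the scaling. The median log2 ratio was 0.11 with the deposited RPKM, with 67 members higher and 16 lower where 26.8% of all genes were lower, and −0.11 with TMM scaling, with 19 higher and 64 lower where 46.9% of all genes were lower. In the deposited values 81 of the 83 members were highest at 0 days, 67 were lowest at 3 days and 16 at 5 days. Of 3130 other genes of the same length range, 53.3% were highest at 0 days, 49.5% lowest at 3 days and 30.4% lowest at 5 days. At least 2-fold higher at 5 than at 3 days was 1 member, Rps4y2, against 1.95% of all genes, and 0 were 2-fold lower, against 3.45%.

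**Figure D1:**
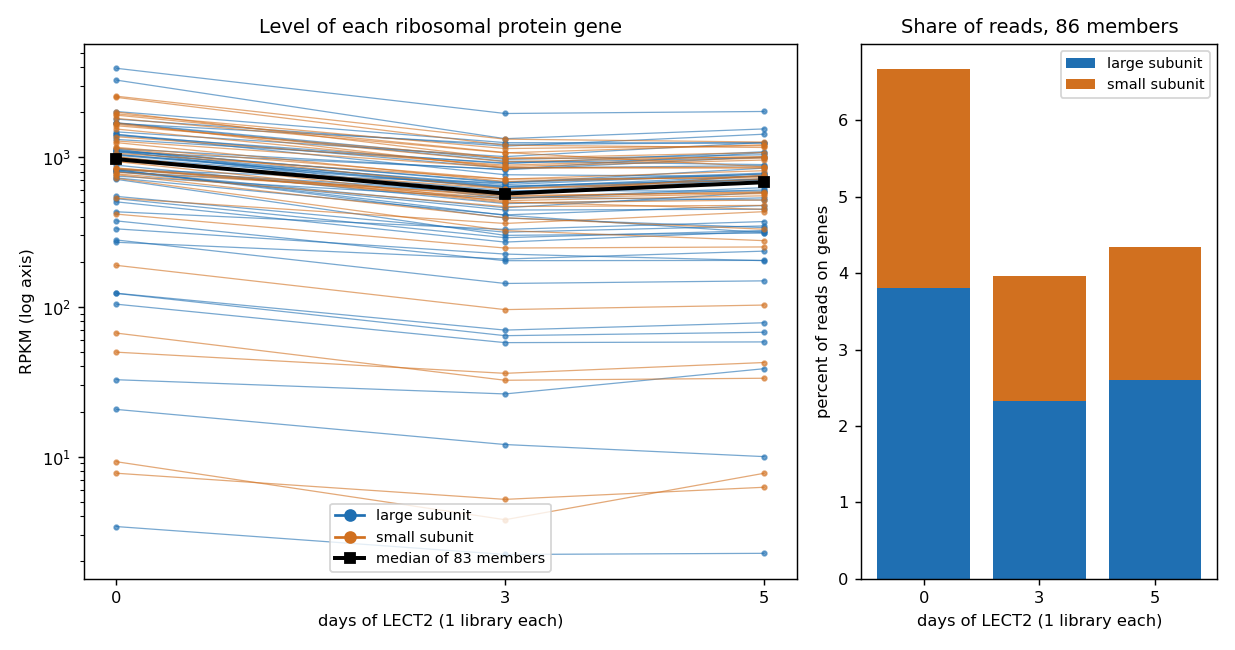
Left, RPKM (log axis) of each of the 83 ribosomal protein genes used for ratios against days of LECT2, 1 library per time point, with lines joining the values of a gene, blue for the large and orange for the small subunit, and the median in black. Right, the share of all reads on genes held by the 86 members, as stacked bars by subunit. The lines run nearly parallel from 0 to 3 days, the median goes from 969.8 to 572 and 680.2 RPKM, and the share from 6.67% to 3.97% and 4.34%; the small step from 3 to 5 days turned downwards under TMM scaling.

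The annotated starts of a few members are shown because the TOP tract lies there and because the members moved together. The 30 bases run from 10 before to 20 after the RefSeq transcription start (GRCm38.p6, read on the strand of the gene), and capitals mark a run of at least 8 C or T that lies within 15 bases before to 25 bases after the start, as far as it falls in the bases shown. Rpl35a, Rplp2, Rpl38 and Fau were among the 10 members with the lowest ratios at 5 days, Rpl7a, Rpl4 and Rpl15 among the 5 with the highest at 3 days, and Rpl37a and Rpl5 stand for members without such a run. Rpl35a has 3 annotated starts, and the one shown is the only one with a run.
Rpl35a (chr16:33056472-33056501, plus strand): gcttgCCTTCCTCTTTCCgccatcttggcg
Rplp2 (chr7:141447641-141447670, plus strand): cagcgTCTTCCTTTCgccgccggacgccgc
Rpl38 (chr11:114668570-114668599, plus strand): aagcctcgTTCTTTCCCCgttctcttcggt
Fau (chr19:6057937-6057966, plus strand): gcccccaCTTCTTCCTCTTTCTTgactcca
Rpl7a (chr2:26910797-26910826, plus strand): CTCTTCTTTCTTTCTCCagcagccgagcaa
Rpl4 (chr9:64173377-64173406, plus strand): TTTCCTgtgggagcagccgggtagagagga
Rpl15 (chr14:18270967-18270996, minus strand): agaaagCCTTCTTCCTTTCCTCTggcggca
Rpl37a (chr1:72711250-72711279, plus strand): ctcgccggtctaaaaccgcgcatgcgcatt
Rpl5 (chr5:107900518-107900547, plus strand): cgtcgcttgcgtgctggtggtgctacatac

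Starts were found for 64 of the 86 members and for 27025 genes in all, with 1.19 and 1.22 starts per gene on average. A run of at least 8 C or T near a start was present in 30 of the 64 members (46.9%) and in 17.5% of all genes. Both ends of the range of ratios held members with the run, as the starts of Rpl35a and Rpl7a show. Of these members, 62 were used for ratios. The 30 with the run had medians of −0.75 (3 days) and −0.64 (5 days), and the 32 without it −0.76 and −0.66.

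Other short motifs were searched on both strands of the 300 bases from 250 before to 50 after the start. CCGGAAG, the core bound by ETS factors, was present in 25 of 64 members (39.1%) and in 9.93% of all genes. AAGATGG, part of the site of YY1, was present in 11 members (17.2%) and in 7.28% of all genes. TATAAA was the less frequent in members, with 7 (10.9%) against 15.7% of all genes. The 24 members with CCGGAAG that were used for ratios had medians of −0.79 (3 days) and −0.69 (5 days), and the 38 without it −0.75 and −0.60. For AAGATGG they were −0.83 and −0.72 in 11 members, against −0.75 and −0.61 in 51 without it. For TATAAA they were −0.77 and −0.82 in 7 members, against −0.75 and −0.61 in 55. A match to these letters is a description and not a site of binding.

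The members with the highest levels stood far above most genes. At 0 days 76 of 83 were in the top 5 percent of genes with reads, and 73 were at 3 and at 5 days. The number of members with at least 1000 RPKM was 39, 11 and 17 in order of time. The order of the members by level was nearly kept, with a Spearman correlation over the 83 members of 0.97 between 0 and 3 days, 0.93 between 0 and 5 days and 0.98 between 3 and 5 days, where all values of a time point share a library.

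Rpl41, a very short basic peptide of the large subunit, was the most abundant member, with 3925, 1958 and 2020.0 RPKM at 0, 3 and 5 days. Rpl17, which lies near the exit of the peptide tunnel, was at 2018, 1251 and 1245 RPKM. In the deposited values Rpl41 therefore stood at about the same lower level at both later time points, 49.9% of the level of 0 days at 3 days and 51.5% at 5 days, and the 95% counting intervals of the log2 ratios were −1.03 to −0.97 and −0.99 to −0.93. With TMM scaling the log2 ratios of Rpl41 were −1.09 at 3 days and −1.27 at 5 days. For Rpl17 the log2 ratios were −0.69 and −0.70.

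Of the small subunit, Rps24, Rps12 and Rps16 had the highest mean levels over the 3 libraries. Rps24, 1 of the genes mutated in Diamond-Blackfan anaemia, was at 2554, 1319.6 and 1263 RPKM at 0, 3 and 5 days. Rps12 was at 2510 RPKM, 1202 and 1161, and Rps16 at 1947, 1142 and 1193. All of them were highest at 0 days, and the 2 later libraries differed by far less than either did from 0 days.

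The lateral stalk of the large subunit recruits the elongation factors. Rplp0, the protein at its base, was at 1476, 1009 and 1253 RPKM at 0, 3 and 5 days. Rplp1, an acidic protein bound to it, was at 3272, 1329 and 1545 RPKM, and its partner Rplp2 at 711, 300.5 and 311 RPKM. The 2 acidic proteins were thus lowered more than the base. The log2 ratio of Rplp1 was −1.30 (−1.33 to −1.27) at 3 days, the lowest of all 83 members, and −1.08 at 5 days. For Rplp2 it was −1.24 and −1.19, and for Rplp0 −0.55 and −0.24 (−0.26 to −0.21). Rplp1 and Rplp2 have short coding sequences of 342 and 345 bases and Rplp0 one of 951 bases.

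Rps27a and Fau encode a ribosomal protein of the small subunit joined to ubiquitin and to a ubiquitin-like protein. Rps27a was at 763.5, 394 and 330.1 RPKM at 0, 3 and 5 days. Fau was at 1909, 1074 and 863 RPKM. Both were among the 16 members that were lowest at 5 days, with log2 ratios of −0.95 and −1.21 for Rps27a and −0.83 and −1.15 for Fau at 3 and 5 days.

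Rpl5 and Rpl11 carry the 5S ribosomal RNA into the large subunit and can bind Mdm2, the inhibitor of p53, when free. Rpl5 was at 432, 329 and 372 RPKM at 0, 3 and 5 days. Rpl11 was at 1141, 824 and 1005 RPKM. Both lay near the upper end of the ratios, at −0.39 and −0.22 for Rpl5 and −0.47 and −0.18 for Rpl11. With the length trend removed Rpl11 turned to 0.09 and 0.37, while Rpl5, at −0.37 and −0.40, was below the members' medians of −0.29 and −0.21.

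Rps19, the gene most often mutated in Diamond-Blackfan anaemia, was at 417, 247 and 251 RPKM at 0, 3 and 5 days. Rps14, which is lost in a form of myelodysplastic syndrome, was at 1695, 848 and 845 RPKM. Rps19 had log2 ratios of −0.75 and −0.73, and Rps14 had counting intervals of −1.04 to −0.96 at both time points. In the deposited values neither differed between the later libraries beyond its counting interval, while with TMM scaling the ratio from 3 to 5 days was −0.20 for Rps19 and −0.23 for Rps14. Rps6, the target of S6 kinase, was at 1370.4, 885 and 987 RPKM, with log2 ratios of −0.63 and −0.47.

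Rpl38, which is needed for the translation of certain Hox mRNAs, was at 1134, 542 and 517 RPKM at 0, 3 and 5 days. Rpl24, mutated in the Belly spot and tail mouse, was at 727, 412 and 476 RPKM. The X-linked Rps4x was at 1623, 985 and 1074 RPKM, and the X-linked Rpl10, which takes part in subunit joining, at 1314, 916 and 993 RPKM. Rpl38 was again among the members lowest at 5 days, with log2 ratios of −1.06 and −1.13, and the other three were lowest at 3 days in the deposited values but at 5 days with TMM scaling. The step of Rpl38 from 3 to 5 days, −0.07 (−0.14 to 0.00), lay within counting error in the deposited values and was −0.29 with TMM scaling. Their log2 ratios at 3 and 5 days were −0.82 and −0.61 for Rpl24, −0.72 and −0.60 for Rps4x and −0.52 and −0.40 for Rpl10.

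The ends of the range held different kinds of member. At 5 days the lowest ratios were those of Rpl37a, Rps21, Rpl35a, Rps27a and Rplp2. Rpl37a, a zinc-binding protein of the large subunit, was at 824, 409.6 and 313 RPKM at 0, 3 and 5 days, and its log2 ratio at 5 days was −1.40 (−1.46 to −1.33). Rps21 was at 723, 323 and 277 RPKM, with −1.16 at 3 days and −1.38 at 5 days. Rpl35a, mutated in some patients with Diamond-Blackfan anaemia, was at 826, 393 and 339 RPKM, with −1.07 and −1.29. All these were highest at 0 days, and Rpl37a, Rps21, Rpl35a and Rps27a were lower at 5 than at 3 days, also with TMM scaling.

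At the upper end at 5 days were Rpl7l1, Rpl7a, Rpl4, Rps2 and Rpl3. Rpl7a was at 828, 673 and 845 RPKM at 0, 3 and 5 days, with log2 ratios of −0.30 (−0.34 to −0.26) and 0.03 (−0.01 to 0.07). Rpl4, which lines the peptide exit tunnel, was at 1086, 830.1 and 1073 RPKM, with −0.39 and −0.02 (−0.04 to 0.01). These 2 genes were back at the level of 0 days at 5 days within counting error in the deposited values. With TMM scaling the log2 ratios at 5 days were −0.28 for Rpl7a and −0.33 for Rpl4, so the return depends on the scaling.

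Rps2, at the entry of the mRNA channel, was at 793, 561 and 761 RPKM at 0, 3 and 5 days, with log2 ratios of −0.50 and −0.06, the latter −0.37 with TMM scaling and 0.17 with the length trend removed. Rpl3, close to the peptidyl transferase centre, was at 827, 581 and 754 RPKM, with −0.51 and −0.13, the latter −0.44 with TMM scaling. Rpl15 was at 270.2, 209 and 236 RPKM and was 1 of the 5 least lowered members at 3 days, with −0.37, and −0.20 at 5 days. The 5 members with the highest ratios at 5 days had coding sequences of 738 bases for Rpl7l1, 798 for Rpl7a, 1257 for Rpl4, 879 for Rps2 and 1209 for Rpl3. The 5 lowest had 276 for Rpl37a, 249 for Rps21, 330 for Rpl35a, 468 for Rps27a and 345 for Rplp2, where the median of the members was 454.5.

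**Figure D2:**
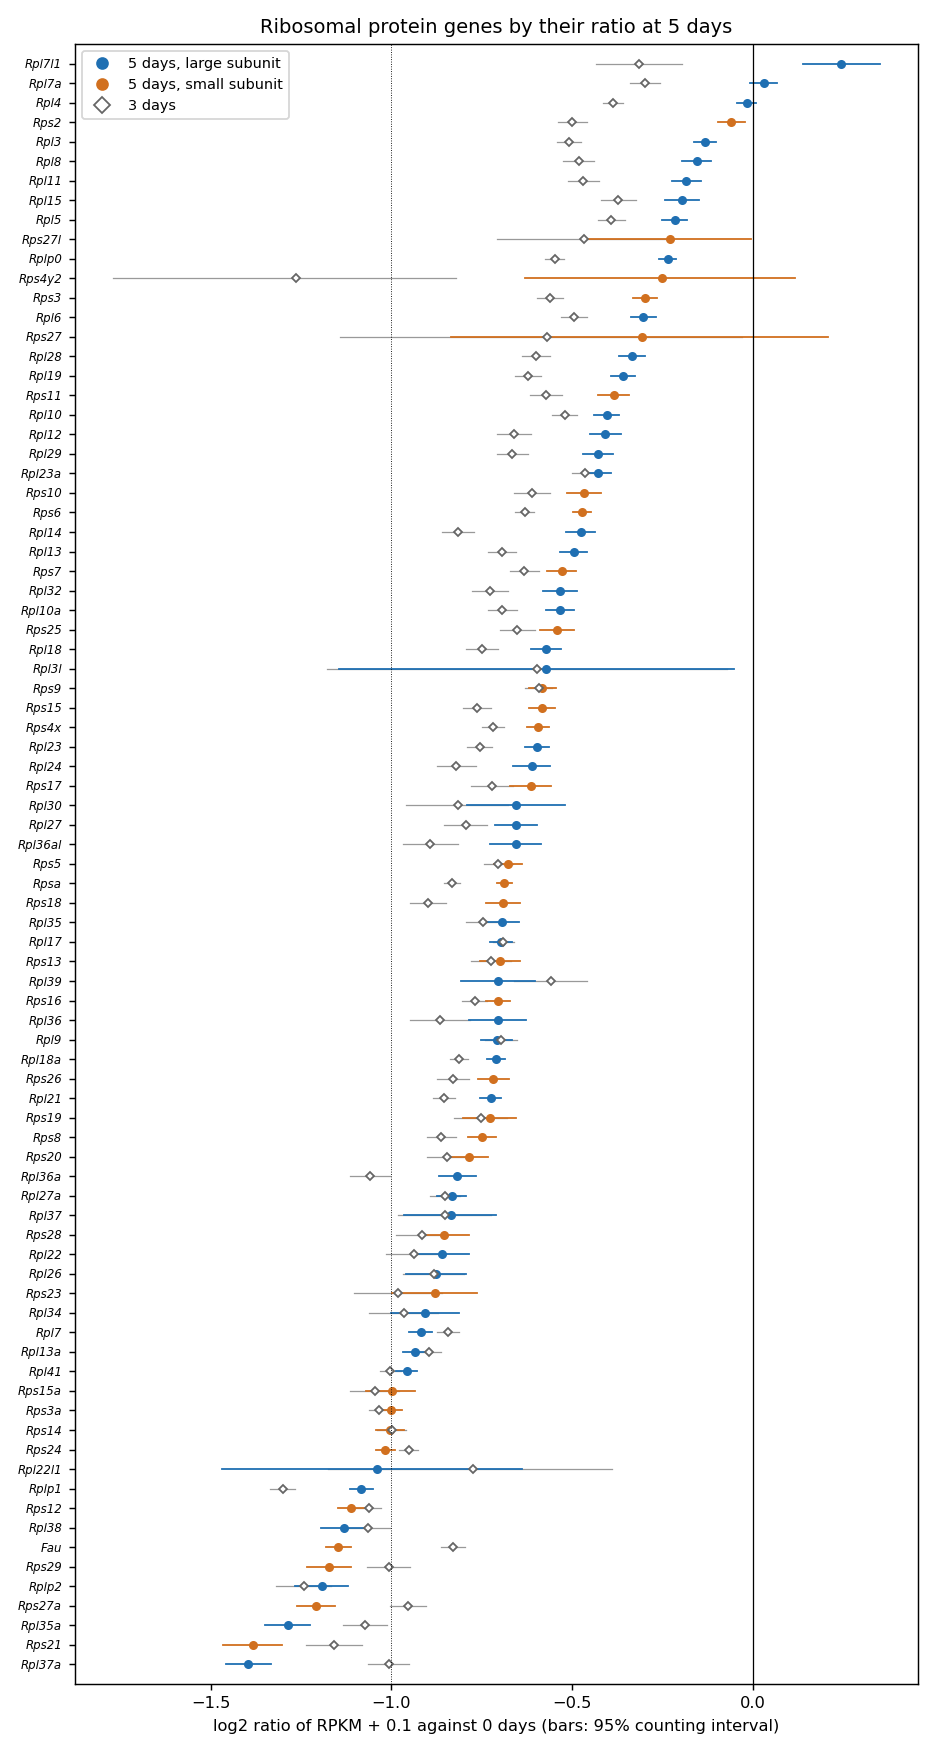
Log2 ratio of RPKM + 0.1 against 0 days (horizontal axis) of the 83 ribosomal protein genes, ordered by the ratio at 5 days, with circles for 5 days (blue, large subunit; orange, small subunit), open diamonds for 3 days and bars for the 95% counting interval. All diamonds lie left of 0, and the circles run from −1.40 for Rpl37a to 0.24 for Rpl7l1, which turned to −0.06 with TMM scaling; the dotted line marks a 2-fold lower level.

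The spread among members was larger than the counting error. The SD of the log2 ratio over the 83 members was 0.22 at 3 days and 0.34 at 5 days, and the median half-width of the counting interval was 0.04 at both. Variation between mice is not part of these intervals.

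The 2 subunits gave close values. The 49 members of the large subunit had medians of −0.75 (3 days) and −0.65 (5 days), and the 34 of the small subunit −0.80 and −0.70. The reads of the large subunit were 3.81%, 2.33% and 2.61% of all reads on genes at 0, 3 and 5 days, and those of the small subunit 2.86%, 1.64% and 1.73%. The ratio of large to small subunit reads was 1.33 at 0 days and 1.42 and 1.51 at the later time points. This ratio needs no scaling between libraries, but the large subunit members were also longer, with a median of 737 bases against 631, and with the length trend removed the medians at 3 days were −0.30 for the large and −0.27 for the small subunit, and at 5 days −0.21 and −0.24.

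Of the 8 paralogs, 6 reached a mean of 1 RPKM, and all 6 had fewer reads than most members. Rpl36al, a close copy of Rpl36a, was at 503, 271 and 319 RPKM at 0, 3 and 5 days. Rps27l, a p53-inducible relative of Rps27, was at 49.8, 36.0 and 42.5 RPKM. Rpl7l1, a relative of Rpl7, was at 32.6, 26.2 and 38.7 RPKM and was the 1 paralog above its level of 0 days, with a log2 ratio of −0.31 at 3 days and 0.24 (0.14 to 0.35) at 5 days in the deposited values, which turned to −0.06 with TMM scaling.

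Rpl22l1, a relative of Rpl22, had 153, 87 and 74 reads at the successive time points. Rps4y2 was at 9.24, 3.79 and 7.74 RPKM, on 135, 54 and 113 reads, and Rpl3l, a relative of Rpl3 known from muscle, at 3.41, 2.22 and 2.26 RPKM. Rps4y2 had the largest step from 3 to 5 days, on few reads, with log2 ratios of −1.26 (−1.77 to −0.82) at 3 days and −0.25 (−0.63 to 0.12) at 5 days. The remaining log2 ratios at 3 and 5 days were −0.77 and −1.04 for Rpl22l1, −0.60 and −0.57 for Rpl3l, −0.47 and −0.23 for Rps27l and −0.89 and −0.66 for Rpl36al. Rpl10l had 1, 0 and 0 reads and Rpl39l 4, 1 and 1 reads, so no fold was computed for them.

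A few rows had far fewer reads than a ribosomal protein usually has, and were picked out after their values were seen. Rpl31 had 3 rows, of which the highest held 6, 8 and 6 reads at 0, 3 and 5 days, and it was the third member not used for ratios. Rps27 had 72, 47 and 58 reads, or 7.74, 5.18 and 6.24 RPKM, and lay below its paralog Rps27l. Rps15a, at 66.8, 32.4 and 33.4 RPKM, has a deposited length of 5158 bases, the longest of the 83, where the median is 708. Ribosomal protein genes have many near-identical copies in the mouse genome, and how reads that fit several copies were counted is not given in the sources used here. The levels of single members, of paralogs above all, are uncertain for that reason.

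The log2 ratio was higher in longer genes over the whole table, so the members, which are short, were compared with other genes of their length range. This range was set from the 5th to the 95th percentile of the members' deposited lengths, 427 to 1878 bases, and held 3130 other genes whose mean reached 1 RPKM. Their medians were −0.27 (3 days) and −0.11 (5 days), against 0.10 and 0.31 for all 11144 genes. The members' median was lower than that of these genes by a log2 difference of −0.50 at 3 days and −0.57 at 5 days. Of these other genes, 10.3% lay below the members' median at 3 days and 18.6% at 5 days.

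The difference was smaller against abundant genes and within the classes of shorter genes. Against the 370 genes of the range that averaged 100 RPKM or more it was −0.42 at 3 days and −0.26 at 5 days. At 3 days the median of the 16 members up to 500 bases was −0.89 and that of 166 other genes −0.53. Above 500 and up to 700 bases it was −0.82 for 23 members and −0.51 for 238 others, above 700 and up to 1000 bases −0.70 for 25 members and −0.43 for 552 others, and over 1000 bases −0.60 for 19 members and 0.15 for 10105 others. This last class was not matched in length, since its members had a median length of 1398 bases and the others one of 2890, and with the length trend removed by a lowess curve its members were at −0.41. In every class the members' median was lower at 3 days. Of the 166 other genes up to 500 bases 36 had 3 or fewer reads in a library at 0 or 3 days, and raising such libraries to 3 reads gave −0.48.

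At 5 days the short members were close to other short genes. Up to 500 bases the medians were −0.84 for members and −0.73 for other genes, or −0.58 with libraries raised to 3 reads, and the 16 other genes of that class with at least 100 RPKM were lower still, at −0.92. Above 500 and up to 700 bases they were −0.69 and −0.54, above 700 and up to 1000 bases −0.58 and −0.30, and over 1000 bases −0.47 and 0.38. With the trend of the ratio on length removed, the median of the members was −0.29 at 3 days, with 77 of 83 lower, and −0.21 at 5 days, with 63 of 83 lower. The 370 other genes of the range with at least 100 RPKM were then at 0.00 at 3 days and at −0.18, with 234 lower, at 5 days, so at 5 days the members were close to other abundant genes. Under that correction the 2-fold threshold was passed downwards by 1 member at 3 days, against 1.81% of all genes, and by 2 at 5 days, against 7.61%.

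**Figure D3:**
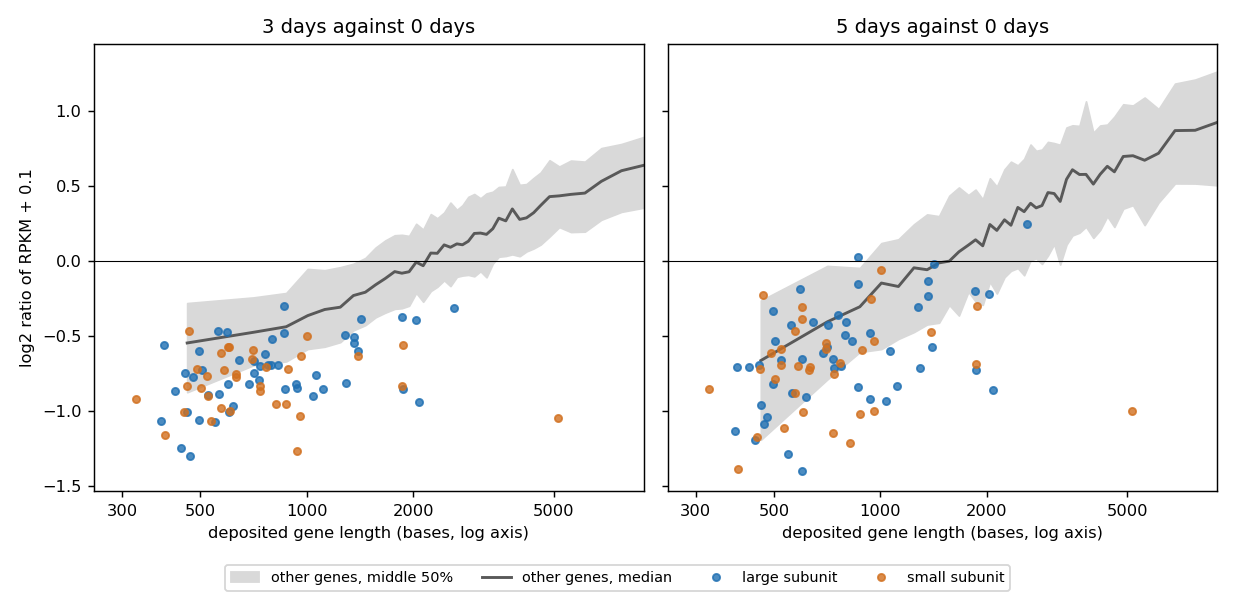
Log2 ratio of RPKM + 0.1 against deposited gene length (bases, log axis) at 3 days (left) and 5 days (right), with points for the 83 ribosomal protein genes by subunit, a grey line for the median of other genes in 40 bins of equal number and a grey band for their middle 50%. The grey line goes up with length in both panels; 79 of 83 members lie below the line at 3 days and 69 at 5 days, 55 and 25 of them below the band, while at 5 days 31 of the 39 members up to 700 bases lie within the band, and the lone point at the far right is Rps15a.

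Among the members themselves the ratio also went with length, and most with that of the coding sequence. The Spearman correlation of the log2 ratio with the deposited length over the 83 members was 0.33 at 3 days and 0.37 at 5 days, and with the coding length in GENCODE M21 over 82 members 0.58 and 0.59. With the GC content it was −0.04 and 0.03, and with the mean RPKM 0.03 and −0.02. The members share the libraries, so these are descriptions. In the annotation, 85 members lie on 20 chromosomes, with 14 on chromosome 7, so they are spread over the genome.

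Other lists of translation genes had higher medians than the ribosomal proteins at both time points, and most hold longer genes. The 76 mitochondrial ribosomal proteins, which build the separate ribosome of the mitochondrion, had medians of −0.41 (3 days, 70 lower) and −0.07 (5 days, 41 lower), the latter −0.37 with 64 lower under TMM scaling. The 29 initiation factors had medians of −0.11 at 3 days and 0.28 at 5 days, the latter −0.03 with TMM scaling, and the 8 elongation and termination factors −0.28 and 0.10, the latter −0.20 with TMM scaling. The 18 other mRNAs with a TOP tract, which share that control of translation, had −0.29 at 3 days, with 13 lower, and 0.11 at 5 days, with 8 lower, or −0.20 with TMM scaling. With the length trend removed the medians at 3 days were −0.04, −0.16, −0.18 and −0.12 in the same order, against −0.29 for the members.

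Eef1a1, the elongation factor that brings transfer RNA to the ribosome and a TOP mRNA, was at 2483, 2571 and 3558 RPKM at 0, 3 and 5 days. Gnb2l1, the scaffold protein of the small subunit also called Rack1, was at 689, 541 and 667 RPKM. Eef1b2, also a TOP mRNA, was at 231, 123 and 136 RPKM. Eef1a1 had a log2 ratio of 0.05 at 3 days, smaller than the shift that TMM scaling gave all genes, and 0.52 at 5 days, while Eef1b2 had −0.91 at 3 days, within the range of the members. The deposited lengths of Eef1a1 and Eef1b2, 1790 and 1933 bases, are alike.

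The 40 genes of ribosome biogenesis, which process ribosomal RNA and assemble the subunits, had medians of −0.24 at 3 days, with 28 lower, and 0.35 at 5 days, with 31 higher, or 0.04 with 21 higher under TMM scaling. Of all 11144 genes, 4719 were lower at 3 days and 7528 higher at 5 days, or 5616 higher at 5 days with TMM scaling. The 5 chaperones of ribosomal proteins had −0.42 and 0.11, the latter −0.20 with TMM scaling. With the length trend removed biogenesis was at −0.24 at 3 days and the chaperones at −0.39, which is below the members' −0.29. At 5 days biogenesis was then at 0.03 and the chaperones at 0.21, against −0.21 for the members. Regulators of ribosomal protein synthesis (14 genes, among them Mtor and Myc) had 0.18 at 3 days and 0.61 at 5 days, or 0.09 and 0.31 with TMM scaling and 0.03 and 0.20 with the length trend removed. Mtor, the kinase of the pathway, was at 3.78, 6.84 and 10.5 RPKM at 0, 3 and 5 days, and Myc, which drives transcription of ribosome genes, at 25.3, 21.5 and 32.9 RPKM. Mtor has a deposited length of 8612 bases and log2 ratios of 0.84 at 3 days and 1.44 at 5 days. Other genes in length bins with medians of 7783 and 10238.5 bases had medians of 0.60 and 0.67 at 3 days. At 5 days these bins were at 0.87 and 0.97. For p53 and its targets (8 genes) the medians were 0.17 and 0.13, the latter −0.18 with TMM scaling.

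Oxidative phosphorylation had the lowest medians of these pathway lists in the deposited values, and its genes are also short, with a median deposited length of 654 bases. The 74 nuclear subunits of oxidative phosphorylation had a median of −0.56 at 3 days, with 73 lower, and −0.42 at 5 days, with 60 lower, or −0.07 and 0.03 with the length trend removed. At 3 days 3 of these and at 5 days 5 were at least 2-fold lower, near the share of all genes (2.41% and 5.91%). The 37 proteasome subunits had −0.34 and −0.03, the latter −0.34 with TMM scaling. The members' median was lower than that of the oxidative phosphorylation list by a log2 difference of −0.20 at 3 days and −0.26 at 5 days.

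**Figure D4:**
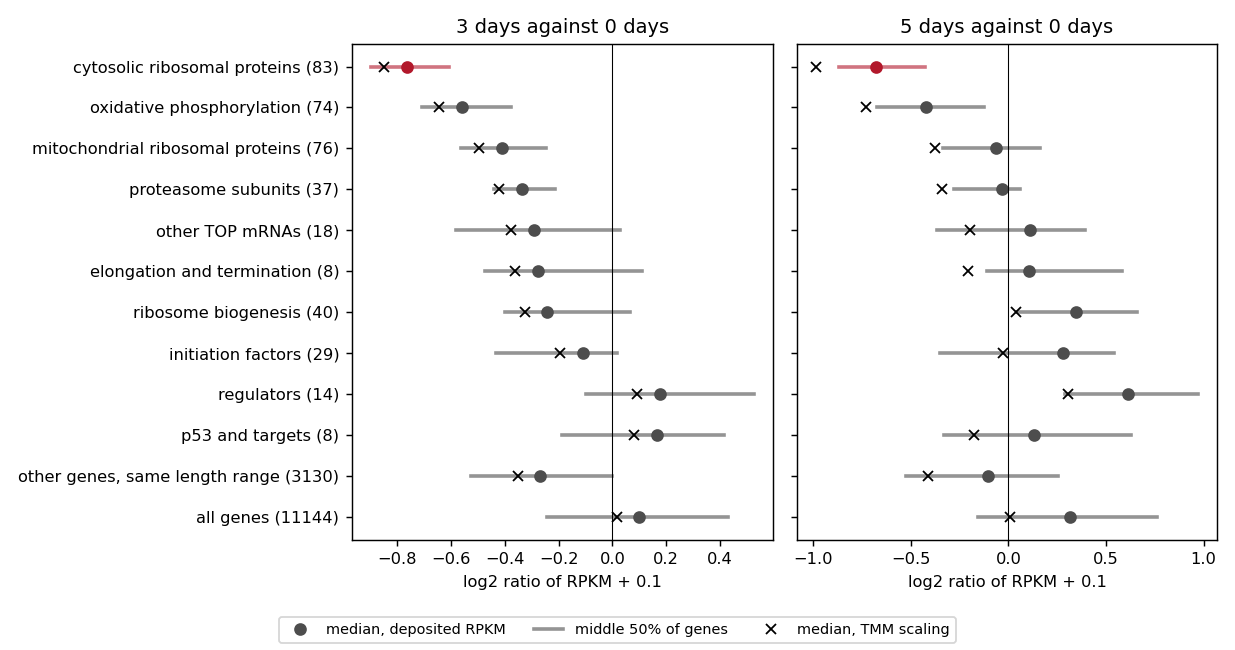
Median log2 ratio of RPKM + 0.1 (circles) and the middle 50% of genes (bars) at 3 days (left) and 5 days (right) for the ribosomal protein genes (red), the pathway lists, other genes of the same length range and all genes, with the number of genes in parentheses and crosses for the median under TMM scaling. The ribosomal protein genes are the lowest entry drawn in both panels, at −0.76 and −0.68, or −0.85 and −0.99 with TMM scaling, followed by oxidative phosphorylation; at 5 days several translation lists lie right of 0 in the deposited values and left of 0 with TMM scaling.

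Markers of BM cell types moved with the time points too. The summed RPKM of 11 listed markers of late neutrophils, such as S100a9 and Retnlg, went from 149972 over 116155 to 41519, and their median log2 ratios were −0.12 and −1.81. The largest step of these markers lay between 3 and 5 days, and that of the members between 0 and 3 days. The 10 genes with the most reads, picked anew in each library, held 12.5%, 10.4% and 5.38% of the reads at 0, 3 and 5 days. Markers of the erythroid lineage (10 genes) summed to 5760, 4555 and 1890 RPKM, with medians of −0.29 and −0.51. The alpha globins Hba-a1 and Hba-a2 made up much of that sum, and 4 of the 10 were higher at each time point in the deposited values, such as Slc4a1 with 0.74 and 0.67, while with TMM scaling 2 were at 3 days and 1 at 5 days.

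Promyelocyte markers (6 genes) summed to 2248, 2082 and 3631 RPKM with medians of −0.16 at 3 days and 0.56 at 5 days, and B cell markers (8 genes) to 2058, 1643 and 1468 RPKM with −0.34 and −0.36. Macrophage and monocyte markers (9 genes) summed to 1291, 1551 and 1933 RPKM with 0.69 and 1.27, and T and NK cell markers (9 genes) to 212, 128 and 179 RPKM with −0.68 and −0.53. Stem and progenitor (7 genes), megakaryocyte (6 genes) and osteolineage markers (6 genes) had −0.34 and 0.00, −0.67 and 0.00, and −0.34 and −1.32, where the 5-day values of the first 2 lists were −0.30 and −0.30 with TMM scaling. Of the liver markers only Alb was listed, with 1, 0 and 0 reads. No other marker list had a gene at 0 in a library. The part of these cell types in the lower levels of the ribosomal protein genes was not tested.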

How the data were processed

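RNA was measured in 3 libraries of flushed mouse BM cells, prepared with the Illumina TruSeq RNA kit. The authors deposited, for each pair of time points, a table with whole read counts per gene and RPKM, and their own log2 ratios, p-values and false discovery rates, which were not used. Expression was quantitated by the authors with Cufflinks 1.0.3, and the submitters' processing notes name the build mm8, while the aligner and the annotation are not given in the sources used here. Each deposited RPKM value was the count over gene length and over the total on genes, within 0.1 percent, apart from 18 rows at 0 days and 14 at 3 days. Of several rows with 1 symbol, that of the largest mean RPKM was used.

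Log2 ratios of RPKM + 0.1 were described over members whose mean reached 1 RPKM. The pseudocount understates the change of low genes. Counts of called genes in all genes use at least 1 RPKM in either library. Intervals of ratios are exact (Clopper-Pearson) 95% intervals, and for members at 3 or fewer reads no fold was computed. The 47 of 11144 genes with so few reads at 0 or 5 days stayed in the medians, which were 0.10 and 0.31 at 3 and 5 days also with libraries raised to 3 reads. With 1 library per time point no test was made, and 3 reads on 1000 bases, the floor, are 0.193 RPKM at 0 days. The members and lists were chosen with earlier results of these data known. Members named with values were the 3 highest of each subunit, the 5 highest and 5 lowest ratios at 3 and at 5 days, the paralogs, the stalk proteins, the ubiquitin fusions and Rpl5, Rpl11, Rps19, Rps14, Rps6, Rpl38, Rpl24, Rpl41, Rps4x and Rpl10. The rule also gave, of each list, the most abundant gene and the largest rise and fall at 5 days, of which few are printed, since they are no members. Mtor, Myc and Gnb2l1 were named besides.

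Lengths are those of the deposited tables. Chromosomes, coding lengths and GC content came from GENCODE M21 and starts from RefSeq (both GRCm38), matched by symbol or gene ID, and no position was carried over to the authors' build. Alternatives were other scalings (edgeR 4.0.16, DESeq2 1.42.0), pseudocounts, minimum levels, length ranges and fold thresholds. Python 3.11.15 with pandas 2.3.3, numpy 2.4.6, scipy 1.17.1 and statsmodels 0.14.6 (lowess span 0.3) and R 4.3.3 were used, and the steps were tested on simulated data.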

Additional observations from a re-analysis of the deposited data

How the results depend on the processing

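No paired analysis was possible because each time point has 1 library. At 3 and 5 days the members' median kept its sign under every alternative run. Scaling moved the median of all genes from 0.10 at 3 days and 0.31 at 5 days to 0.02 and 0.01 under TMM. The members' medians at 3 and 5 days were −0.85 and −0.99 with TMM, −0.84 and −0.98 under median-of-ratios scaling, −0.83 and −0.86 with the reads outside the 100 top genes, and −0.29 and −0.21 with the length trend removed. Smaller shifts were −0.76 at 3 days with a pseudocount of 1, and at 5 days −0.68 with a minimum of 5 RPKM, −0.67 with no minimum and −0.69 without the paralogs. From 3 to 5 days TMM and median-of-ratios scaling both gave a median of −0.11, and it was 0.0011 with the reads outside the 100 top genes and 0.0059 with the length trend removed.

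The difference from genes of the same length range at 3 days was −0.51 with a pseudocount of 1, −0.49 with a minimum of 5 RPKM, −0.54 with no minimum, −0.42 against genes of at least 100 RPKM, −0.31 for the 25th to 75th percentile of length and −0.39 against each member's own length class, taken over all 4 classes. At 5 days TMM and median-of-ratios scaling both gave −0.58, and it was −0.58 with a pseudocount of 1, −0.58 with a minimum of 5 RPKM, −0.62 with no minimum, −0.26 against genes of at least 100 RPKM, −0.31 for the narrower range and −0.31 against each member's own length class, taken over all 4 classes. From 3 to 5 days it was −0.06 with the deposited RPKM, −0.046 with a pseudocount of 1, −0.028 with no minimum, 0.14 against genes of at least 100 RPKM, 0.0094 for the narrower range and 0.00022 against each member's own length class, taken over all 4 classes. The length classes and leaving out the paralogs were chosen after seeing the data.

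At least 2-fold lower at 3 days were 20 members under TMM, 1 with the length trend removed and 65 at a threshold of 1.5. At 5 days these counts were 40, 2 and 49, with 36 under median-of-ratios scaling and 25 with the reads outside the 100 top genes, where 9.79% and 8.09% of all genes were 2-fold lower. Set against the reads outside the 100 genes with the most reads, the members' reads were 9.08%, 5.15% and 5.22% at 0, 3 and 5 days. Among members whose counting interval excluded 0, removing the length trend turned the sign of 6 at 3 days and 18 at 5 days. Of those named it turned Rpl11 to 0.094 and 0.37 and Rps27l to 0.17 and 0.47 at 3 and 5 days. It also turned Rpl7a to 0.13 at 3 days, and Rps2 to 0.17 and Rpl7l1 to −0.10 at 5 days. Rps27 and Rps4y2, whose intervals at 5 days spanned 0, turned to 0.24 and 0.014 at 5 days. Rpl7l1 at 5 days was −0.064 with TMM and −0.054 with median-of-ratios factors. The cause of these moves was not tested. Depth did not limit most members, whose counting intervals were narrow; the paralogs with few reads had wide ones.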

Other observations

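Rows with the ending -ps, which the symbol rule leaves out, held few reads. Rps15a-ps4 had 71, 51 and 35 reads at 0, 3 and 5 days, and Rpl34-ps1 had 70, 33 and 56 reads. Rps19-ps3 had 16, 11 and 7 reads and Rps15a-ps6 14, 10 and 11 reads. The rows of Rpl31-ps12 and Rplp2-ps1 held at most 6 reads in any library.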
